A study of Mus musculus with 3 samples.

Results

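The 9 genes described here encode ubiquitin ligases of skeletal muscle, and were found on the array as every non-control probe whose RefSeq accession maps to Trim63, Trim55, Trim54, Fbxo32, Fbxo30, Fbxo21, Fbxo40, Nedd4 or Cblb. They had 12 of the 55681 probes, in 21 of the 59305 non-control spots of each array, because the single Fbxo32 probe is printed 10 times. Of the 9 genes, 6 could be tested among 7424 genes or unnamed transcripts.

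The RNA came from a hindlimb muscle that the labels call SOL, taken to be the soleus. The mice were male, of the strain C57BL/6, 8 weeks old and fed regular chow. Mice with the genotype Mettl21cLacZ/LacZ (KO), in which both copies of the gene carry a LacZ allele, were compared with wildtype mice (WT). Mettl21c encodes a lysine methyltransferase that acts on proteins. The labels describe 3 biological replicates of each genotype and do not say whether the mice were littermates or whether RNA was pooled. Each of 3 arrays held 1 WT sample in green (Cy3) and 1 KO sample in red (Cy5), and because the dyes were not exchanged, dye bias and genotype cannot be told apart at any probe.

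A ubiquitin ligase is the last enzyme of a cascade in which ubiquitin is passed from an E1 to an E2 enzyme and then to a chosen protein, which the proteasome can then degrade. In muscle, MuRF1 (encoded by Trim63) and atrogin-1 (encoded by Fbxo32) are known as ligases whose transcripts increase during wasting, under FOXO factors and glucocorticoids. MuRF1, MuRF2 (Trim55) and MuRF3 (Trim54) are RING-finger ligases of the sarcomere. The F-box proteins are the substrate-binding parts of ligases built on cullin 1 and Skp1. Fbxo30 is also called MUSA1, Fbxo40 is known to act on IRS1 in insulin-like growth factor signalling, Nedd4 is a HECT-domain ligase, and Cblb is a RING-finger ligase of signalling receptors and their adaptors.

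The sequences before the start sites of the 2 MuRF genes that stood lower in KO on all 3 arrays are shown because one of them holds motifs of the factors named above. They were taken from a RefSeq table of GRCm38.p6, which held windows for 7 of the 9 genes, 9 windows in all. Fbxo32 and Trim55 had no window there, so they were not searched for motifs. Each line gives the 250 bases before the start, and capitals mark TGTTTAC (the FOXO element), a glucocorticoid receptor palindrome (GAACA, any 3 bases, then TGTTC) or CANNTG (the E-box of myogenic factors), searched on both strands.
Trim63, chr4:134314870-134315119, plus strand: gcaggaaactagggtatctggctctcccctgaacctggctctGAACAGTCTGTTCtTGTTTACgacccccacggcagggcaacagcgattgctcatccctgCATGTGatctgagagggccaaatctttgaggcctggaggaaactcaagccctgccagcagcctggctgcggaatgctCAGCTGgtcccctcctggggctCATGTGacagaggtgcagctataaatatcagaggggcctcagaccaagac
Trim54, chr5:31116362-31116611, plus strand: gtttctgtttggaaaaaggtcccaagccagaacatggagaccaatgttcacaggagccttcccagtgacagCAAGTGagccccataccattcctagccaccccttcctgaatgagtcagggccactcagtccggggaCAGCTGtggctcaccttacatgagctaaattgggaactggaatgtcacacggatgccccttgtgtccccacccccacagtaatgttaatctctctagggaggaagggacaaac
In Trim63 the palindrome and the FOXO element lie next to each other, 1 base apart, with 3 E-boxes nearer the start. Of all 32851 windows in the table, 0.0396% held the palindrome (13 windows), 3.17% the FOXO element and 66.2% an E-box. The Trim54 window held 2 E-boxes, and 6 of the 9 member windows held at least 1. Among the 9 windows, which include none of Fbxo32 or Trim55, only that of Trim63 held the palindrome or the FOXO element. No motif overlaps another in the Trim63 window. These matches describe letters only.

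The arrays carried RNA of muscle. Of 7 general muscle fibre markers 5 were well above background on all arrays in both genotypes, as were 8 of 9 slow fibre and 9 of 9 fast fibre markers, against 1 of 4 heart muscle markers. Between 20.4% and 23.6% of spots were well above background in a channel. Mettl21c, the targeted gene, had a log2 ratio of KO over WT of -2.45 (SD 0.48, n = 3 arrays, limma adjusted p = 0.0175). Its processed WT signals were 7527, 3677 and 4486, against KO signals of 200.4, 32.3 and 45.4. The KO signal was well above background on 1 of the 3 arrays, so the size of this ratio depends on the background floor and the offset, and the processed signals gave -6.23 (SD 0.87). The position of its single probe relative to the change in the LacZ allele is not given. Over all tested genes 3 passed an adjusted p of 0.05 in limma, all lower in KO, which is 0.0404% of them.

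None of the 6 tested ligase genes passed that threshold. Trim54 and Trim63 had the smallest p-values of the 6 and stood lower in KO on every array, while Fbxo32, Fbxo30, Fbxo21 and Nedd4 had mean log2 ratios between -0.03 and 0.10. At an unadjusted p under 0.05 there were 2 of the 6, Trim54 and Trim63, against 13.4% of all tested genes in either direction and 7.53% on the lower side. A negative ratio on all 3 arrays was seen for 3 of the 6 and for 18.3% of all genes, and a positive one for none of the 6 and for 17.5% of all genes. The 3 were Trim54, Trim63 and Fbxo30, the last at only -0.0041, -0.021 and -0.068. The KO signal of Fbxo30 was well above background on 2 of the 3 arrays. It was thus tested through WT alone, which favours a lower KO value. The mean was negative in 4 of the 6 and in 50.9% of all genes. In whole muscle, fewer cells of a type and less RNA per cell cannot be told apart. The median log2 ratio of the 6 was -0.020, beside -0.0027 over all tested genes, with medians of -0.0033, -0.15 and -0.11 on arrays 1 to 3. Ratios here come from spot intensities with an offset of 50 added after background correction, which shrinks the ratio of a dim probe, and the median SD between arrays was 0.12 over all genes.

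**Figure D1:**
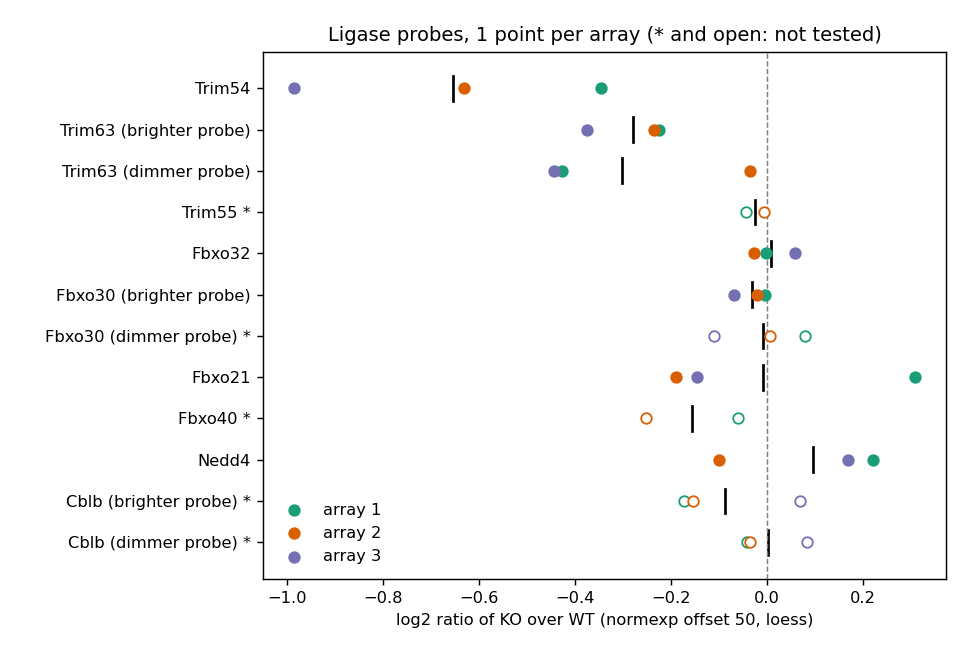
Log2 ratio of KO over WT for each of the 12 ligase probes (rows), with 1 point per array and a black bar at the mean. Filled points are tested probes, and open points with an asterisk were not tested. All 3 points of Trim54 and of both Trim63 probes lie below 0, and the points of Fbxo21 and Nedd4 lie on both sides of it.

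Trim54 encodes MuRF3, a microtubule- and Z-disc-associated member of the family. Its processed signals, which the scanner software corrects for background and dye and which carry no offset, were 5699, 5502 and 9069.9 in WT and 4471, 3773 and 4422 in KO on arrays 1 to 3. Every KO sample thus lay below every WT sample, and the gap was widest on array 3, where the WT sample was the brightest of all 6. Signals that do not overlap with KO below WT were found for 3.79% of all tested genes, and for 1 of the 6 ligases, Trim54. The reverse, KO above WT with no overlap, was found for 2.68% of all genes and none of the 6. After loess its log2 ratios were -0.35, -0.63 and -0.99, with a mean of -0.65 (SD 0.32, n = 3 arrays). That puts KO at 63.6% of WT on the offset scale, with a 95% interval from 52.1% to 77.6% that is not adjusted for the number of genes. The interval, like the others given here, uses limma's moderated variance, which borrows from all tested genes. The limma adjusted p was 0.0975, and the gene ranked 85 of 7424 by p.

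Whether Trim54 passed depended on the setting. With robust, trended moderation in limma its adjusted p was 0.0171, and 1.14% of all genes were called. It was also called by both kinds of centring without loess, which called 66.2% and 35.8% of all genes, and at an adjusted p of 0.1, which called 1.32%. Over all alternatives the adjusted p ran from 6.3e-04 to 1.00, and the ratio was negative in each, from -1.42 to -0.49. The value closest to 0, -0.49 (limma adjusted p = 0.104), came from leaving out array 3, and without array 1 it was -0.81. The processed signals gave -0.64 (SD 0.35), so the offset moved this bright probe little, but their limma adjusted p was 0.417. Treating each channel as a sample of its own, so that the shared array is ignored, gave an adjusted p of 1.00. No ligase was called with an offset of 16 (0.337% of all genes called), no background subtraction (0.0673%), array weights (0.835%) or flagged spots kept (0.013%). The same holds for scaling between arrays, the mean of the tested probes and loess on spots well above background, each of which called 0.0135%.

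Trim63 encodes MuRF1, which is known to bind titin at the M-line and to target proteins of the thick filament. It has 2 probes that were both tested. The processed signals of the brighter probe were 2013, 2073 and 3317 in WT and 1643, 1798 and 2421 in KO. KO was lower than WT on each array, though the groups overlap, because the KO sample of array 3 lies above the WT samples of arrays 1 and 2. After loess the ratios were -0.22, -0.23 and -0.38, with a mean of -0.28 (SD 0.08, n = 3, limma adjusted p = 0.175). KO stood at 82.5% of WT, with an unadjusted 95% interval from 73.4% to 92.6%.

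The dimmer Trim63 probe gave processed signals of 499, 249.7 and 747 in WT and 157, 176 and 319.6 in KO, again lower in KO on each array with overlap between the groups. Its KO signal cleared the background limit on 2 of the 3 arrays. This probe was therefore tested through WT alone, which favours a lower KO value. Its ratios after loess were -0.43, -0.035 and -0.44 (mean -0.30, SD 0.23), and when each probe was tested on its own the limma adjusted p was 0.271. The difference between the probes was -0.02 (SD 0.20), with dimmer minus brighter positive on 1 array and negative on 2. The processed signals separated the probes further, with mean log2 ratios of -1.13 (SD 0.59) for the dimmer and -0.32 (SD 0.13) for the brighter. With an offset of 16 the dimmer probe stood at -0.54 and the brighter at -0.31. The size of the Trim63 ratio therefore depended on the probe and the offset, while the sign of the mean did not in these settings. With centring on the tested probes in place of loess, the dimmer probe had a mean of -0.079, with 0.36 on array 2. Because that probe was tested through WT, its sign is not a second support for a lower KO value.

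**Figure D2:**
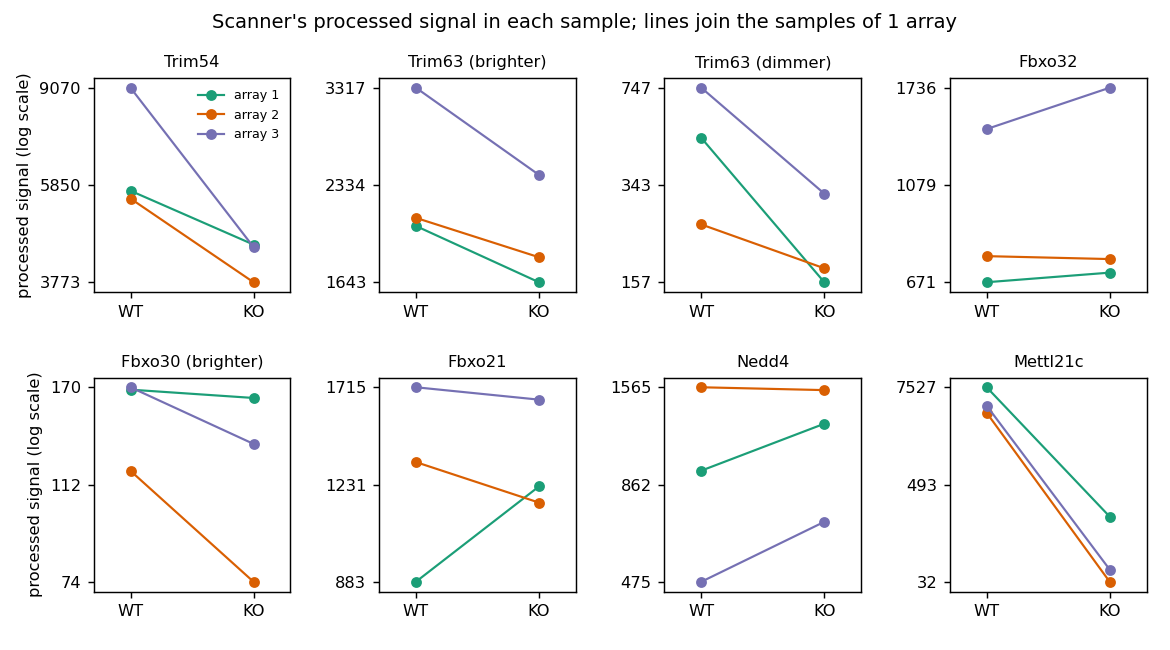
Scanner's processed signal on a log axis (ticks at the lowest, geometric middle and highest value of each panel) in WT and KO for the tested ligase probes and Mettl21c, with lines joining the samples of 1 array. All 3 lines descend for Trim54, both Trim63 probes, Fbxo30 and Mettl21c, while those of Fbxo32, Fbxo21 and Nedd4 run in both directions.

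Trim55, which encodes MuRF2, was not tested. Its spot on array 3 carried a non-uniformity flag, with processed signals of 8573 in WT and 8845 in KO, against 157 and 146 in WT and 124 and 172 in KO on arrays 1 and 2. On arrays 1 and 2 the log2 ratios were -0.044 and -0.0054, and KO was lower than WT in processed signal on array 1 alone. Without array 3 its mean was -0.025 (limma adjusted p = 0.928, n = 2 arrays). With the flagged spot kept it was 0.076 (limma adjusted p = 0.763, n = 3).

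The F-box genes include Fbxo32, the atrogin-1 gene, whose 10 spots show how closely 1 array repeats a measurement. Averaged over the spots without an outlier flag, its processed signals were 671, 762 and 1419 in WT and 703, 751 and 1736 in KO. The sample pair of array 3 was the brighter one in both genotypes, and the difference between arrays exceeded that between genotypes. Log2 ratios after loess were -0.0025, -0.027 and 0.058, with a mean of 0.0095 (SD 0.04, n = 3 arrays, limma adjusted p = 0.970). KO stood at 101% of WT, with an unadjusted 95% interval from 90.2% to 112%.

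Within an array, the Fbxo32 spots without a flag spread by an SD of 0.07, 0.06 and 0.15 in log2 ratio on arrays 1 to 3. On array 3, 3 of the 10 spots carried an outlier flag. Of these, a pair had processed WT signals of 560.3 and 622, below the range of the 7 remaining spots, which ran from 1304 to 1549.6, and the third lay above it at 1862. Among those 7, the KO signals ran from 1168 to 3117 with a median of 1502. The highest of them alone had a log2 ratio of 1.17 in processed signal, against a median of 0.11 over the 7 spots.

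**Figure D3:**
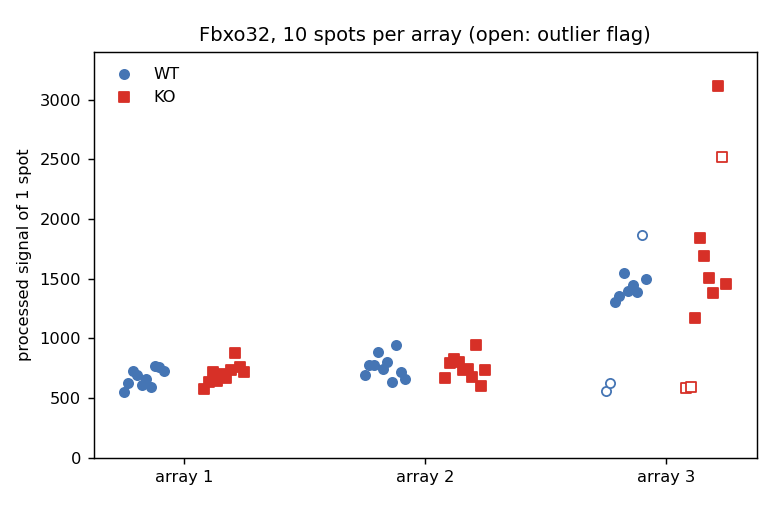
Processed signal of each of the 10 Fbxo32 spots on each array, WT as circles and KO as squares, with open symbols for spots that carry an outlier flag. Signals lie between 549.8 and 947 on arrays 1 and 2 in both genotypes, and the unflagged spots of array 3 lie above them, with 1 KO spot at 3117.

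Fbxo30, the MUSA1 gene, was dim. Its brighter probe gave processed signals of 168, 119 and 170.1 in WT and 163, 74.3 and 134 in KO, and its KO signal cleared the background limit on 2 of the 3 arrays. The probe was therefore tested through WT alone, which favours a lower KO value. KO was lower on each array, with overlap between the groups. After loess the ratios were -0.0041, -0.021 and -0.068 (mean -0.031, SD 0.03, n = 3, limma adjusted p = 0.888), and the unadjusted 95% interval of KO relative to WT ran from 87.8% to 109%. Without the offset, in the processed signals, the mean was -0.36 (SD 0.32, limma adjusted p = 0.495), so at this signal the size of the ratio was set by the correction. Centring on tested probes in place of loess turned it to 0.30 (limma adjusted p = 0.0452), the setting that called 35.8% of all genes. Its other probe did not clear the background limit in any of its 6 readings.

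Fbxo21, which encodes the F-box protein of a ligase called SMART in muscle, had processed signals of 883, 1329 and 1715 in WT and 1222, 1157 and 1644 in KO. KO was higher on array 1 and lower on arrays 2 and 3. The log2 ratios of 0.31, -0.19 and -0.14 had a mean of -0.0087 (SD 0.28, n = 3, limma adjusted p = 0.985), with KO between 83.1% and 119% of WT in the unadjusted 95% interval. The mean was -0.17 without array 1, and turned positive without array 2 (0.082) or array 3 (0.059).

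Fbxo40, a ligase gene known for expression in striated muscle, was not tested, because its spot on array 3 also carried a non-uniformity flag. That spot had processed signals of 16728 in WT and 17422 in KO, against 285 and 350.3 in WT and 196 and 88.2 in KO on arrays 1 and 2. The KO channel was not well above background on array 2. Its log2 ratios after loess were -0.059 and -0.25, and its processed ratios were -0.54 and -1.99. Without array 3 the limma adjusted p was 0.476 (n = 2 arrays), and with the flagged spot kept the mean was -0.20 with an adjusted p of 0.334.

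Nedd4 gave processed signals of 939, 1565 and 475 in WT and 1252, 1538 and 686 in KO. KO was higher on arrays 1 and 3 and lower on array 2, and the groups overlap. The log2 ratios were 0.22, -0.10 and 0.17 (mean 0.10, SD 0.17, n = 3, limma adjusted p = 0.685), with KO between 92.9% and 123% of WT in the unadjusted 95% interval. On array 3 the median pixel of the spot lay only 6 units above its local background in each channel, against 108 and 148.5 in WT and 70 and 55 in KO on arrays 1 and 2. That spot carried no outlier flag. Leaving out array 1 gave a mean of 0.034, leaving out array 2 gave 0.20, and leaving out array 3 gave 0.061.

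Cblb, the ligase known for restraining receptor signalling, could not be measured. Its 2 probes were well above background in 1 of 12 readings, the WT channel of array 1 at the brighter probe, where the processed signal was 64.6. In KO that probe stayed at background on all 3 arrays, and its ratios of -0.17, -0.15 and 0.069 are given without a fold. The dimmer probe cleared the limit nowhere.

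The 6 tested members were compared with each other within arrays. Trim54 had the lowest ratio of the 6 on every array. The log2 ratio minus that of Trim54 had a mean of 0.75 for Nedd4 (SD 0.35), 0.66 for Fbxo32 (SD 0.35), 0.65 for Fbxo21 (SD 0.20) and 0.62 for Fbxo30 (SD 0.29). Against Trim63 the difference, Trim54 minus Trim63, was -0.12, -0.40 and -0.61 on arrays 1 to 3 (mean -0.38, SD 0.24). With 3 arrays an exact sign-flip permutation test, two-sided, cannot give less than 0.25, and each of these 5 differences had that p, or 0.417 after adjustment over the 15 pairs compared. Trim63 was also the lower one of each pair on every array against Fbxo32, Fbxo30, Fbxo21 and Nedd4, again with an exact permutation p of 0.25.

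**Figure D4:**
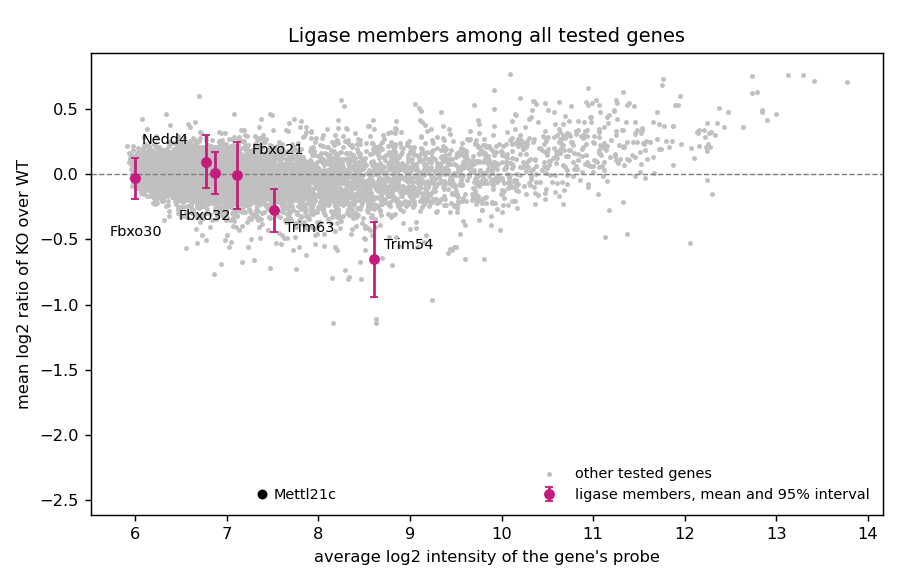
Mean log2 ratio of KO over WT against average log2 intensity for all tested genes (grey), with the 6 tested ligases (mean and unadjusted 95% interval) and Mettl21c marked. The ligases lie at intensities from 6.0 to 8.6, and the cloud bends upward at the bright end, beyond the ligases. The intervals of Trim54 and Trim63 lie below 0.

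The tested genes were also split by average log2 intensity into 4 groups of 1856. From dim to bright, the median ratios of the groups were 0.021, -0.0060, -0.042 and -9.0e-04. Fbxo30 lay in the dimmest group, Nedd4 in the next, Trim63, Fbxo32 and Fbxo21 in the one above, and Trim54 in the brightest. The brightest group reached from 7.91 to 13.77, so its median also covers genes far brighter than Trim54. When loess was fitted to spots well above background alone, an alternative added after the data were seen, Trim54 stood at -0.61 and Trim63 at -0.21, with limma adjusted p of 0.165 and 0.317.

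The 4 named genes whose 3 log2 ratios lay nearest to those of Trim54, by Euclidean distance, were H4c4, Fzd4, Hspa8 and Actg1. H4c4, a histone H4 gene, was nearest at a distance of 0.16, with ratios of -0.29, -0.53 and -1.10. Fzd4, a Wnt receptor gene, lay at 0.20, and the chaperone gene Hspa8 and the cytoplasmic actin gene Actg1 each at 0.26. None of the 4 passed the threshold.

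The rest of the ubiquitin pathway was read from lists of genes, and none of their tested members passed the threshold in either direction, beside 0.0404% of all genes. Among 26 other ligases described in muscle 15 were tested, 5 with a positive and 10 with a negative mean and a median of -0.044. Fbxo31, another F-box gene, had the smallest p, at -0.27 (SD 0.10, limma adjusted p = 0.188), followed by Klhl31, a kelch-repeat gene of muscle, at -0.22 (SD 0.08). A list of 15 genes joined the cullin 1 ligase core, neddylation, which switches cullins on, and the COP9 signalosome. Of these 15 genes 10 were tested, 6 positive and 4 negative, with a median of 0.083. The cullin 1 gene Cul1 was not tested, nor were Nedd8, Uba3 and Nae1 of neddylation. The median thus rests mostly on COP9 signalosome genes, with Ube2m alone for the enzymes of neddylation. The COP9 signalosome genes Cops8 at -0.25 (SD 0.12) and Cops4 at 0.20 (SD 0.20) had the smallest p.

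Of 28 ubiquitin, E1 and E2 genes 20 were tested, 9 positive and 11 negative, with a median of -0.011. Ube2h, an E2 gene, stood at -0.27 (SD 0.20) and Uba1, the main E1 gene, at -0.20 (SD 0.08). Of 20 deubiquitinases 12 were tested, 5 positive and 7 negative, with a median of -0.020. Usp13 stood at -0.18 (SD 0.08) and Usp19, known for a role in muscle wasting, at -0.21 (SD 0.21).

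Among 21 described targets and binding partners of the ligases 14 were tested, 5 positive and 9 negative, with a median of -0.11. The fast myosin light chain gene Mylpf stood at -0.46 (SD 0.27, limma adjusted p = 0.151) and the desmin gene Des at -0.33 (SD 0.21, adjusted p = 0.212). Of 25 regulators of ligase transcription 16 were tested, 9 positive and 7 negative, with a median of 0.012. Rela, a subunit of NF-kappaB, was at -0.30 (SD 0.16) and Srf, the serum response factor gene, at 0.27 (SD 0.23). For the motifs marked in the Trim63 window, Foxo1 stood at -0.055 (SD 0.12) and the glucocorticoid receptor gene Nr3c1 at -0.020 (SD 0.20). The activity of these factors was not measured. Over all tested genes the median was -0.0027. The list medians moved with the setting. Over the 20 alternatives the median of the targets and partners stayed negative, from -0.78 to -0.054, and the other 5 lists had medians on both sides of 0. That of the cullin 1 ligase core, neddylation and COP9 signalosome genes ran from -0.61 to 0.14, and was 0.033 without array 3 and 0.043 without array 2.

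Markers of fibre types and of other cells were measured beside the ligases, and none passed the threshold. Fast fibre markers had a negative mean in 5 of the 7 tested, with a median of -0.23, and their summed processed signal ran from 116000 to 150000 in WT and from 107000 to 131000 in KO. Slow fibre markers had a positive mean in 5 of 6, with a median of 0.22, and a sum from 160000 to 229000 in WT and from 181000 to 221000 in KO. The exception, Atp2a2, stood at -1.14 (limma adjusted p = 0.081), the value furthest from 0 in that list. In simulated arrays the loess left a positive trend for very bright genes. The slow marker Myl3, at 0.49, had an average log2 intensity of 12.84, against 8.16 for Atp2a2. The part of that trend in the marker medians was not tested. The medians of the slow fibre list on arrays 1 to 3 were 0.16, -0.0080 and 0.39. Macrophage and leukocyte markers had a negative mean in 6 of the 6 tested (median -0.24), beside 50.9% of all genes. Their sum ran from 7590 to 15200 in WT and from 6880 to 10400 in KO. The medians of that list were -0.31 and -0.27 on arrays 1 and 2 but 0.040 on array 3. The part of fibre types and other cells in the Trim54 and Trim63 values was not tested. The remaining marker lists had medians between -0.13 (tendon, 6 tested) and 0.21 (red blood cell, 3 tested, all positive).

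**Figure D5:**
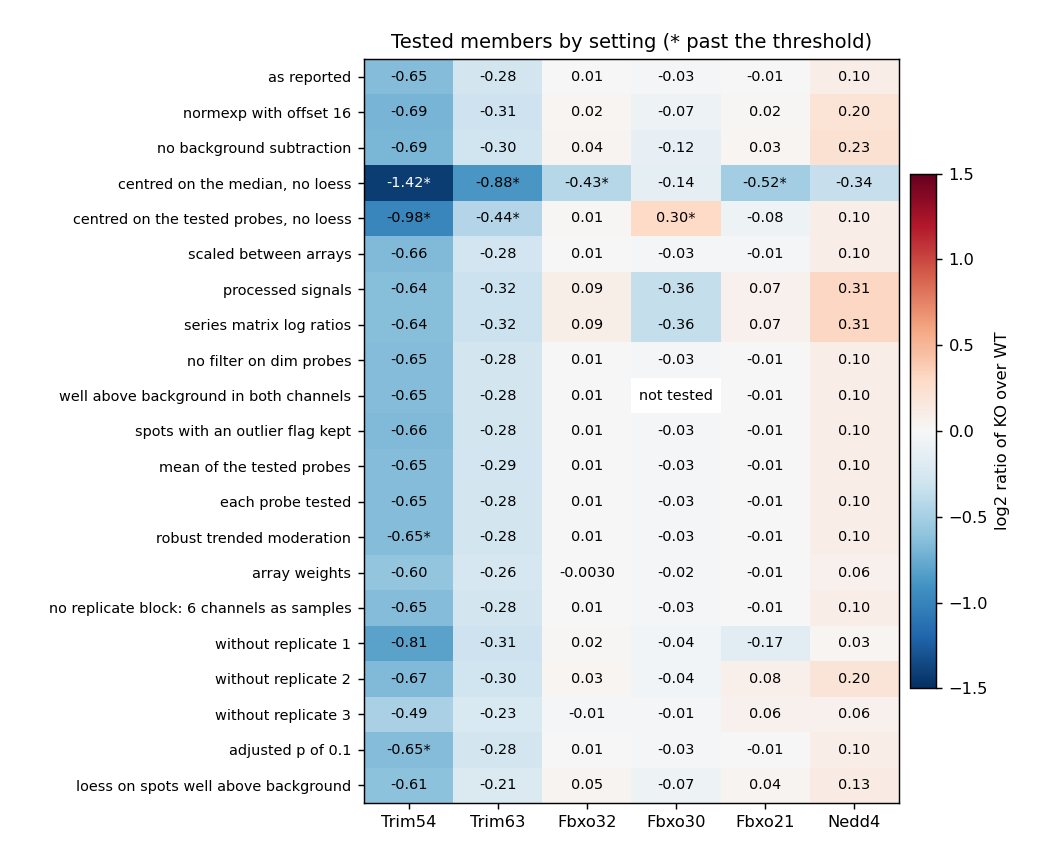
Log2 ratio of KO over WT of the 6 tested ligases (columns) in the reported setting and under 20 alternatives (rows), coloured by value, with an asterisk where the adjusted p passed the threshold of that row. Trim54 and Trim63 are negative in all rows, and Fbxo21 changes sign in 7 of the alternatives.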

How the data were processed

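The header of each deposited scanner file, per the file headers, names version 12.0.3.1 of Feature Extraction, whereas version 11.5 is given per the submitters' processing notes. The deposited values are an intensity per spot and channel, as a median signal and as a processed signal from which that software had taken background and dye differences. A deposited log10 ratio of KO over WT accompanies each spot, and the series matrix repeats it to within 0.0050, with column medians of 0. In the matrix 28540, 29526 and 32272 values on arrays 1 to 3 were exactly 0. The medians of 0 therefore do not show that the ratios were centred.

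Median signals were corrected with normexp (offset 50) and loess in limma 3.58.1 (R 4.3.3). Controls and flagged spots had weight 0, and flagged spots (536, 572 and 1002 on arrays 1 to 3) were left out. A probe was tested if it had 3 values and was well above background on all 3 arrays in 1 channel (8391 of 55681). Accessions were matched to RefSeq symbols of GRCm38.p6 (28664 of 29472). A gene was represented by its brightest tested probe. Ratios were tested against 0 with eBayes and Benjamini-Hochberg adjustment over 7424 genes, two-sided. The number of arrays limits the precision. The p-values set the mean ratio against the spread between 3 pairs of samples, moderated by the variance of all tested genes. The array pairs 1 KO with 1 WT sample, by design. Across genes, the correlations between the arrays' ratios were 0.35, 0.21 and 0.34, and genes are not independent replicates.

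Named were all members with every probe, the 2 list genes of smallest p, Mettl21c, and the 4 genes nearest the member of smallest p. Foxo1 and Nr3c1 were added for the motifs shown, and Atp2a2 and Myl3 as marker genes. Members and lists were chosen with earlier results of these data known. The steps were tested on simulated arrays, where the loess left a positive trend for very bright genes. The ligases lie at lower intensities, but some marker genes and other tested genes do not. The alternatives changed background, normalisation, filter, probes, moderation, pairing, threshold and arrays used.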

Additional observations from a re-analysis of the deposited data

How the results depend on the processing

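There were 3 arrays and no exchange of dyes. Of the 3 ligases not tested, Cblb was dim, and Trim55 and Fbxo40 had a flagged spot on array 3. The offset moved the size of dim ratios. Of the 20 alternatives, 16 called none of the tested ligases. Median centring without loess called 4 ligases, all lower, and 4917 genes, all lower, with a ligase median of -0.47 and all genes at -0.45. Centring on the tested probes called 3 ligases and 2658 genes (1014 higher, 1644 lower). Robust, trended moderation called 1 ligase, Trim54, and 85 genes (41 higher), and an adjusted p of 0.1 also called 1, Trim54, and 98 genes (60 higher). The count over all genes, 3 as reported, was 25 with an offset of 16, 5 with no background subtraction, 62 with array weights (45 higher), and 1 when ratios were scaled between arrays, flagged spots kept, probes averaged, each probe tested or loess fitted to spots well above background (chosen after seeing the data). It was 0 with the processed signals, the series matrix, no filter or a filter on both channels, with 805, 806, 2468 and 935 at an unadjusted p under 0.05 in limma. With no replicate block, as 6 separate channels that ignore the pairing, it was 0 (250 unadjusted). Without 1 array it ran from 0 to 16, lowest without array 3, and the ligase median from -0.11 to -0.0041. That median was -0.12 with the processed signals and with the series matrix. Fbxo21 turned to 0.017 with an offset of 16, 0.027 with no subtraction, 0.070 with the processed signals or the series matrix, 0.041 with the added loess, and ran from -0.17 to 0.082 without 1 array (0.059 without array 3). Fbxo32 turned to -0.43 with median centring and -0.0030 with array weights, and ran from -0.015 (without array 3) to 0.028 without 1 array. Nedd4 turned to -0.34 with median centring, and Fbxo30 to 0.30 with centring on the tested probes. The cause of these turns was not tested. Trim54 and Trim63 kept their sign under all 20.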
